A study of Homo sapiens with 12 samples.

Results

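The stretch of human 18S rRNA from position 401 to 660 was examined for 2'-O-methylation. It is set by position, in the deposited tables' numbering of the 18S sequence, and lies in the 5' domain of the molecule. Earlier results of these data were known when it was chosen. It holds 260 of the 8164 tabulated positions. Of these, 13 are methylation sites that the authors' overview lists, out of 41 listed sites in 18S and 141 in all RNAs, and the other 247 positions are unlisted. RiboMeth-seq had been run on total RNA of Flp-In T-Rex HEK293 cells, an established line derived from human embryonic kidney and engineered to take up inducible transgenes at 1 genomic site. The 12 libraries formed 4 groups of 3 replicates, which the titles call biological. They were the wild-type line (WT), cells with a GPATCH4 knockout (KO), and wild-type cells that had received either control siRNAs without a target (siNT) or siRNAs directed at DHX15 (siDHX15). No rescue or second knockout line is among the samples, and the labels do not say whether the knockout line is 1 clone.

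In 2'-O-methylation a methyl group is put on the ribose of a nucleotide. In human rRNA this is done by box C/D small nucleolar ribonucleoproteins, in which a guide RNA pairs with the rRNA around the target nucleotide and fibrillarin transfers the methyl group. Guide RNAs must pair with and leave the precursor rRNA while it folds, and RNA helicases act in such steps. DHX15 belongs to the DEAH-box RNA helicases. GPATCH4 is a G-patch protein, a class whose name-giving motif docks onto helicases of that family and stimulates them. In RiboMeth-seq, alkali cuts RNA poorly after a methylated nucleotide, so few fragments start or stop there. The RMS score is 1 minus the number of read ends at a position over the weighted mean at its neighbours. It runs from 0, no depletion of ends, to 1, no ends at the position.

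The sequence of the stretch is shown whole because it places the 13 sites among their neighbours. It is written 5' to 3' as RNA from the deposited tables, with the listed sites in capitals:
18S 401 to 660: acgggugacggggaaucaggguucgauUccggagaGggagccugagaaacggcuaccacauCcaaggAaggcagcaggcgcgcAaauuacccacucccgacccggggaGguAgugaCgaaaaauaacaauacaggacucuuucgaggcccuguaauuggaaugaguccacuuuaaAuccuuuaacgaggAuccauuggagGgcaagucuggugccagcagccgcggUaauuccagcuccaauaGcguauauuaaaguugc
In order, the capitals are Um428, Gm436, Cm462, Am468, Am484, Gm509, Am512, Cm517, Am576, Am590, Gm601, Um627 and Gm644, that is 5 adenosines, 2 cytidines, 4 guanosines and 2 uridines. The windows of 21 nt around the 7 sites that changed in at least 1 of the comparisons below are given with the site itself in capitals:
Um428: aggguucgauUccggagaggg
Gm509: gacccggggaGguagugacga
Am512: ccggggagguAgugacgaaaa
Am576: uccacuuuaaAuccuuuaacg
Am590: uuuaacgaggAuccauuggag
Um627: gcagccgcggUaauuccagcu
Gm644: agcuccaauaGcguauauuaa
The capital U of the Um627 window follows the ccgcgg of the highly conserved loop near the decoding centre of the small subunit. Sites Gm509, Am512 and Cm517 lie within 8 nt of each other, so the windows of the first 2 overlap. RefSeq's annotation of GRCh38.p14 lists 5 copies of the 18S gene (RNA18SN1 to RNA18SN5), each 1869 nt long and transcribed into non-coding rRNA with no UTR. On chromosome 21 lie RNA18SN1 (8436876 to 8438744), RNA18SN2 (8209631 to 8211499) and RNA18SN3 (8392666 to 8394534). RNA18SN4 lies on chromosome 22 (125931 to 127799), and RNA18SN5 is on a sequence not placed on a chromosome. The tables give 1 sequence for 18S, so values are sums over all copies.

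The libraries held 7437847 to 16314082 read ends in WT and KO and 875096 to 5111963 in the siRNA groups, and the stretch took 10.5% to 14.8% of the 18S ends of a library. At the 13 sites the neighbour mean had a median of 1885 ends in WT, 1283 in KO, 279 in siNT and 256 in siDHX15. The fewest ends at a site were 2, at Gm644 in siNT replicate 1, where the score of 0.989 has a 95% Poisson interval from 0.960 to 0.999. Such intervals cover counting error only, since without molecular identifiers reads cannot be taken as separate molecules. The tables hold no values for the GPATCH4 or DHX15 transcripts, so neither loss could be checked.

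In WT 11 of the 13 sites had a mean score of 0.75 or more, and Gm436 and Cm462 did not. The 13 means had a median of 0.928 and 9 reached 0.9. The highest was Gm601, a target of the guide SNORD103, at 0.969 ± 0.00690 (SD, n = 3). Near it lay Am512 (guide SNORD70) at 0.956 ± 0.0115, Am484 (SNORD16) at 0.951 ± 0.0130 and Am468 (SNORD83) at 0.948 ± 0.00298. Lower in the order came Am590 (SNORD62) at 0.941 ± 0.0492, Cm517 (SNORD56) at 0.932 ± 0.0101 and Gm644 (SNORD54) at 0.928 ± 0.0171. After them came Um627 (SNORD65) at 0.905 ± 0.0171, Gm509 (SNORD11) at 0.902 ± 0.0121 and Um428 (SNORD68) at 0.885 ± 0.0263. Each of these 10 sites differed from the next in the order by less than the sum of their SDs. Am576 (SNORD93) stood apart at 0.753 ± 0.0162, below every WT score of the 10.

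The lowest WT levels were at Gm436 and Cm462. Gm436, a target of SNORD100, scored 0.274, 0.295 and 0.237 in the 3 WT libraries, 0.293, 0.685 and 0.454 in KO, 0.530, 0.570 and 0.400 in siNT, and 0.660, 0.426 and 0.381 in siDHX15. The WT scores were below all others except the KO score of 0.293, and the remaining 3 groups overlapped. Cm462, a target of SNORD14, scored 0.321, 0.667 and 0.621 in WT, 0.812, 0.741 and 0.860 in KO, 0.873, 0.572 and 0.816 in siNT, and 0.682, 0.445 and 0.947 in siDHX15. Its spread was the largest of the 13 sites in WT, siNT and siDHX15, and no groups other than WT and KO were fully apart.

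**Figure D1:**
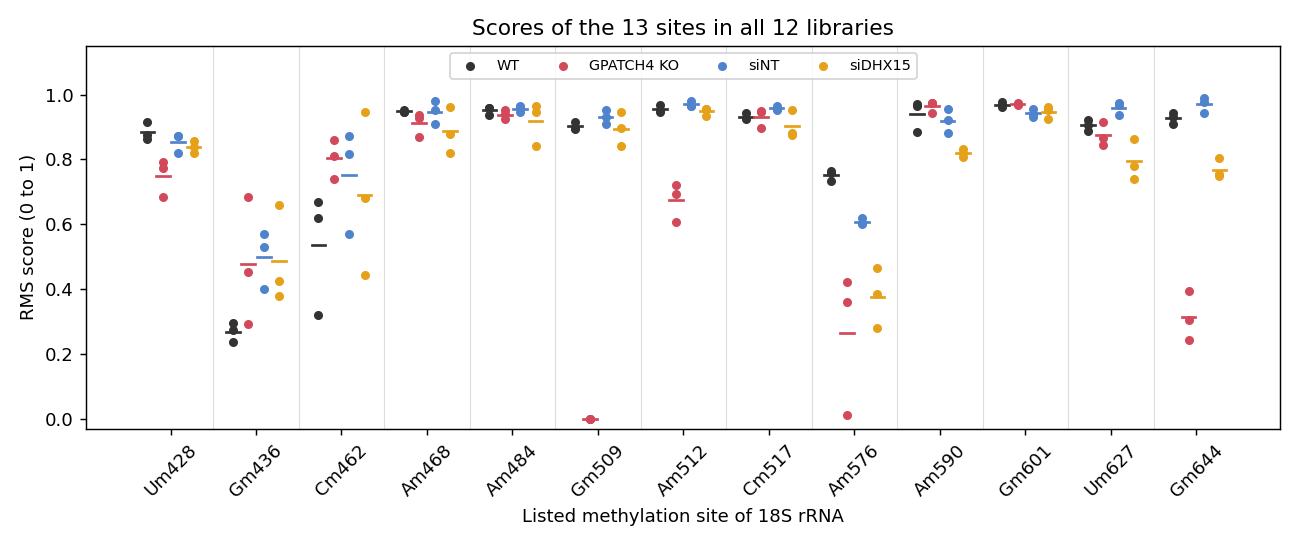
RMS score (y axis, 0 to 1) of the 13 listed sites (x axis) in the 3 libraries of each group (points), with the group mean as a bar. The 3 KO points at Gm509 coincide at 0, and the KO points at Am512, Am576 and Gm644 lie apart from the WT points.

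The listed sites stood out from the rest of the stretch. Over the 247 unlisted positions the mean score in WT had a median of 0.0859, 72 positions were at 0 and none reached 0.75. The highest was G440, which lies 4 nt after Gm436, with 0.656 ± 0.120 in WT and 0.650 ± 0.0394 in KO. It was followed by G620, 7 nt before Um627, with 0.606 ± 0.0792 in WT and 0.618 ± 0.0748 in KO. The others among the 5 highest in the control libraries were G635, G547 and A415. G635 and G547 had WT means of 0.519 and 0.537, and A415 scored from 0.421 to 0.542 in WT. Cm462 and Gm436 had WT means under that of G440, so the score alone does not set them apart from unlisted positions. In KO 4 of the 13 sites were no higher than the highest unlisted position, namely Gm436, Gm509, Am576 and Gm644, against 2 in each of the other groups. In siDHX15 these 2 were Gm436 and Am576, and in siNT they were Gm436 and Am576 as well. The number of sites with a mean of 0.75 or more was 11 in WT, 7 in KO, 11 in siNT and 10 in siDHX15.

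**Figure D2:**
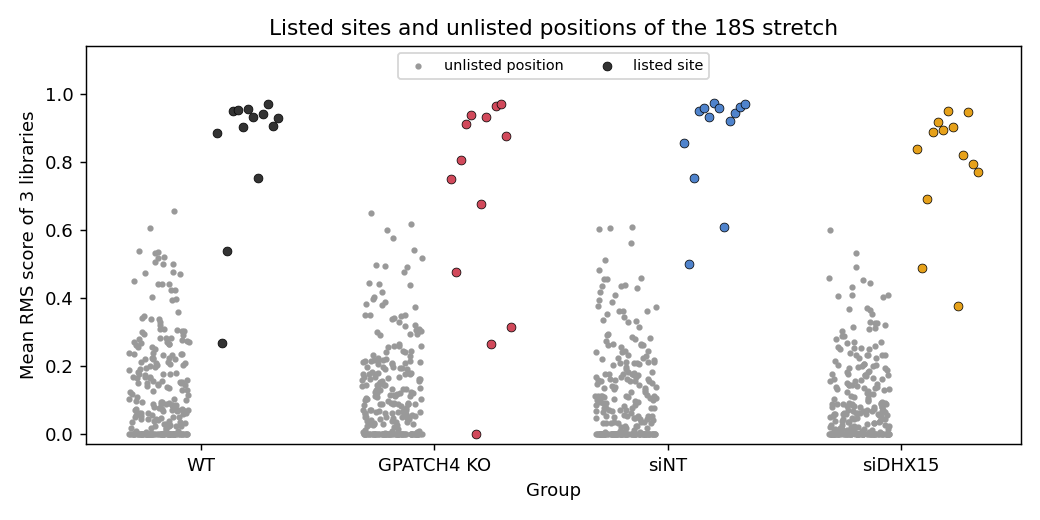
Mean RMS score of 3 libraries (y axis) for the 247 unlisted positions (grey points) and the 13 listed sites (coloured points) of the stretch in each group (x axis), with horizontal scatter added for legibility. No unlisted position reaches 0.75 in any group, and 1 listed site lies at 0 in KO.

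The first comparison asked which of the sites depend on GPATCH4. In KO 5 of the 13 sites fell against WT (limma, adjusted p under 0.05 over all 141 sites) and none rose. They were Gm509, Gm644, Am576, Am512 and Um428. This is 38.5% of the sites, beside 24.8% of all 141 sites that were lower and 0.709% that were higher. Of the other 28 sites of 18S, 12 were lower, and of the 68 sites of 28S, 15 were lower and 1 was higher. The median difference was -0.03 over the 13 sites, -0.10 over the other 18S sites and 0.00 over the 28S sites, which are descriptions of these lists.

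Gm509 lost its protection in KO by the score from read 5' and 3' ends together. From read 3' ends alone the site kept a mean score of 0.375 in KO, against 0.908 in WT. The score from both kinds of ends was 0.897, 0.893 and 0.916 in WT and 0 in all 3 KO libraries. It was 0.931, 0.911 and 0.952 in siNT and 0.945, 0.898 and 0.840 in siDHX15. The KO libraries thus lay below every library of the other groups. The difference from WT was -0.902 (SE 0.0243, 95% interval -0.957 to -0.848, limma adjusted p = 1.48e-09). At this nucleotide 1367, 733 and 608 read ends were counted in KO, where the neighbour means were 1137, 700 and 523. Ends at Gm509 were thus 1.20, 1.05 and 1.16 times the neighbour mean in KO, against 0.103, 0.107 and 0.0842 in WT. Scores below 0 are set to 0, so the KO spread is not seen in the score. Without that floor the KO scores were -0.202, -0.0473 and -0.163 and the difference was -1.04 (limma adjusted p = 2.22e-08).

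Of the 2 listed sites just downstream, 1 changed and the other did not pass the test. Am512 scored 0.954, 0.946 and 0.968 in WT and 0.694, 0.722 and 0.608 in KO, and the groups did not overlap. Its difference was -0.281 (SE 0.0258, limma adjusted p = 1.02e-05), which leaves a mean of 0.675 ± 0.0592 (SD, n = 3) in KO. Gm509 is itself among the neighbours from which the score of Am512 is computed. With listed sites left out of the neighbours the KO scores of Am512 were 0.713, 0.743 and 0.636, against 0.960, 0.953 and 0.973 in WT. Cm517 scored 0.924, 0.928 and 0.943 in WT and 0.946, 0.950 and 0.898 in KO. Its groups overlapped, and the 95% interval of the difference ran from -0.0512 to 0.0501 (limma adjusted p = 0.987). Within 8 nt, the 3 sites therefore held a mean KO score of 0, 0.675 and 0.931.

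**Figure D3:**
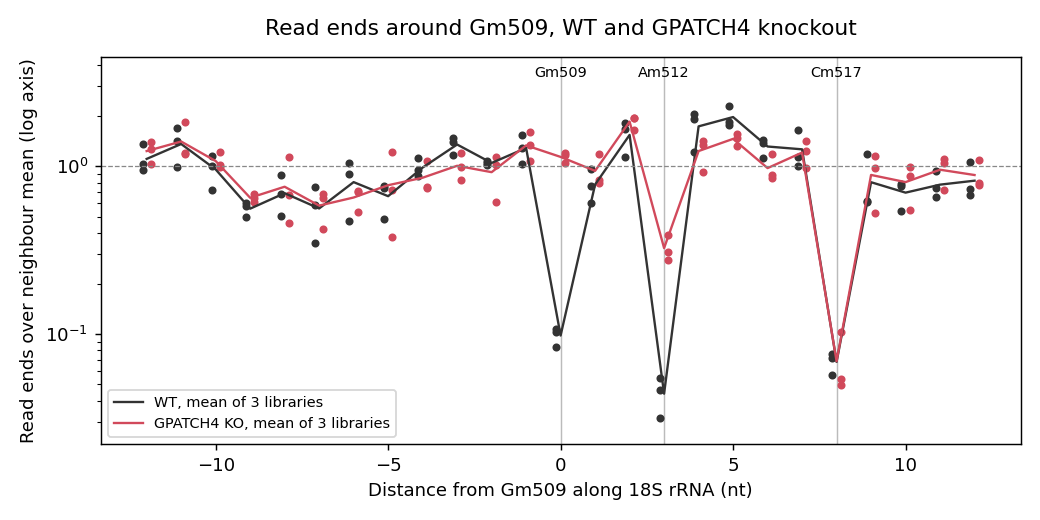
Read ends divided by the mean of the neighbouring positions (y axis, log axis) at distances of up to 12 nt from Gm509 (x axis) in WT (black) and KO (red). Points are libraries and lines are means of 3. At distance 0 the KO libraries lie at 1.05 to 1.20 and the WT libraries at 0.0842 to 0.107, whereas at Cm517 the libraries of both groups lie between 0.0499 and 0.102.

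Gm644, near the 3' end of the stretch, had the next largest difference. It scored 0.910, 0.930 and 0.943 in WT and 0.395, 0.244 and 0.307 in KO, and the groups did not overlap. The mean fell by 0.613 (SE 0.0343, limma adjusted p = 3.77e-07) to 0.315 ± 0.0760 (SD, n = 3).

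Am576 scored 0.735, 0.759 and 0.766 in WT and 0.360, 0.0120 and 0.422 in KO. All KO scores were lower, and KO replicate 2 was far below the other 2. The difference was -0.489 (SE 0.0901, limma adjusted p = 0.00196), with a 95% interval from -0.691 to -0.287. Each file header opens with a short run of bases, taken here as a library index, though the headers do not name it so. Each such index is shared by 1 WT or KO library and 1 siRNA library. With this index as a block the difference was -0.403 and no longer passed (limma adjusted p = 0.136). WT and KO share no index, so this fit reaches their difference only through the siRNA libraries. The lost call therefore does not show that the difference depends on the index.

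The smallest of the 5 called differences was at Um428, which scored 0.876, 0.865 and 0.915 in WT and 0.791, 0.683 and 0.773 in KO. The groups did not overlap, and the difference was -0.136 (SE 0.0292, limma adjusted p = 0.00508). It was no longer called in the fit with that block, under the same limit (limma adjusted p = 0.0772). Nor was it called from read 3' ends alone (0.0931) and with all libraries thinned to the shallowest (0.112).

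The remaining 8 sites did not pass the test in KO. Gm601 had the narrowest interval, with a difference of 0.00 (95% interval -0.0311 to 0.0335, limma adjusted p = 0.969). For Am484, Am468, Um627 and Am590 the differences were -0.01, -0.04, -0.03 and 0.02, with intervals that lay within 0.12 of 0. Am468 had all 3 KO scores below all WT scores, at 0.929, 0.937 and 0.868 against 0.945, 0.948 and 0.951. With it, 6 of the 13 sites had such separated lower scores, beside 31.2% of all 141 sites. Cm462 alone had all KO scores above all WT scores, beside 7.09% of the 141. Gm436 and Cm462 had higher KO means, with differences of 0.21 and 0.27, but intervals from -0.0139 to 0.431 and from -0.0311 to 0.567 (limma adjusted p = 0.168 and 0.192). At Cm462 the direction turns with the scores behind the authors' overview, which give -0.0659 (limma adjusted p = 0.954). Without KO replicate 1 the difference at Gm436 was 0.301 and passed (limma adjusted p = 0.0430).

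Dependence on DHX15 was the question of the second comparison. Gm644, Um627 and Am590 fell in siDHX15 against siNT, 3 of the 13 sites, and none rose (limma, adjusted p under 0.05). This is 23.1% of the sites, beside 31.2% of all 141 sites lower and 0 higher. Of the other 28 sites of 18S, 11 were lower, and of the 68 sites of 28S, 26 were lower. The median difference was -0.06 over the 13 sites, -0.10 over the other 18S sites, -0.07 over the 28S sites and -0.06 over all 141 sites. Centring each library on its median deviation over all listed sites shifted the siDHX15 differences by 0.0692. Gm644 (-0.132, limma adjusted p = 0.0137) and Um627 (-0.0963, 0.0469) were still called, and 8 of the other differences turned from negative to positive, none of them called. Gm601 was then higher (0.0725, limma adjusted p = 0.00619), so that 2 calls were lower and 1 was higher.

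Gm644 scored 0.989, 0.944 and 0.978 in siNT and 0.755, 0.804 and 0.748 in siDHX15, with no overlap. The difference was -0.201 (SE 0.0343, limma adjusted p = 0.00122). It was thus lower in both comparisons, each against its own control. Um627, in the conserved loop, scored 0.937, 0.968 and 0.975 in siNT and 0.864, 0.780 and 0.739 in siDHX15, also without overlap. The difference was -0.165 (SE 0.0312, limma adjusted p = 0.00221), and from read 3' ends alone it was -0.177 and did not pass (adjusted p = 0.306). In WT and KO the scores of Um627 overlapped, at 0.907, 0.887 and 0.921 against 0.846, 0.916 and 0.866.

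Am590 scored 0.956, 0.923 and 0.882 in siNT and 0.809, 0.831 and 0.821 in siDHX15. The 3 siDHX15 scores lay close together and below all siNT scores, and the difference was -0.0996 (SE 0.0267, limma adjusted p = 0.0163). In the centred libraries the difference at Am590 was -0.0305 (limma adjusted p = 0.449). It also missed the threshold without siNT replicate 1 (0.0679), on the logit scale (0.0849), in edgeR's quasi-likelihood test on read ends (0.104), from read 3' ends alone (0.108) and with thinned libraries (0.0572).

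Am576 was lower in every siDHX15 library, at 0.385, 0.465 and 0.282 against 0.619, 0.605 and 0.601 in siNT. Its difference of -0.231 (SE 0.0901) missed the threshold (limma adjusted p = 0.0819). In a fit on the siNT and siDHX15 libraries alone the same difference passed (limma adjusted p = 0.0143), as it did in edgeR's quasi-likelihood test on read ends (0.0269). Cm517 was also separated, at 0.951, 0.881 and 0.876 against 0.965, 0.956 and 0.953, with a difference of -0.0551 (limma adjusted p = 0.0942). The same edgeR test called Cm517 (adjusted p = 0.0196). Am512 was separated too, with a difference of -0.0218 (95% interval -0.0797 to 0.0361). In all 6 of the 13 sites had 3 siDHX15 scores below the 3 siNT scores, beside 44% of all 141 sites.

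From read 3' ends alone 1 site, Gm644, was called in siDHX15. With a library left out, the number of siDHX15 calls ran from 2, without siNT replicate 1, to 6. Without siDHX15 replicate 1, the shallowest at 875096 read ends, the 6 sites were called. The 3 added were Am468 (-0.0977, limma adjusted p = 0.0348), Gm509 (-0.0624, 0.0470) and Cm517 (-0.0794, 0.0106). With all libraries in the fit, Gm509 had a difference of -0.0371 (95% interval -0.0916 to 0.0174, limma adjusted p = 0.304). Um428, Gm436, Cm462 and Gm601 had differences of -0.02, -0.01, -0.06 and 0.00 that did not pass, with the widest interval, -0.361 to 0.237, at Cm462.

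**Figure D4:**
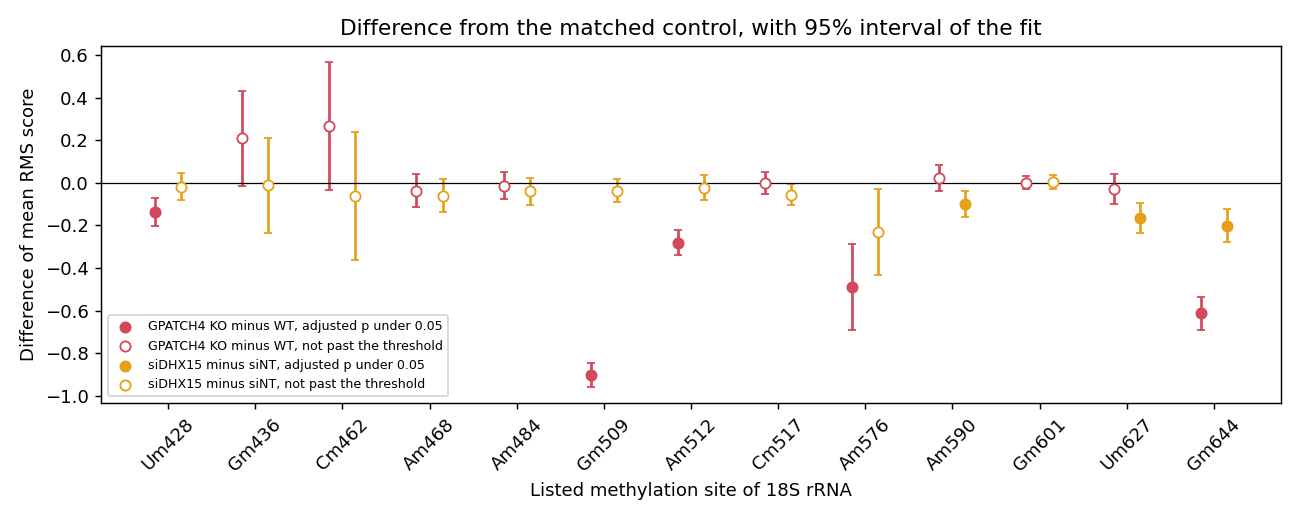
Difference of mean RMS score from the matched control (y axis) with the 95% interval of the limma fit at each of the 13 sites (x axis), for KO minus WT (red) and siDHX15 minus siNT (orange). Filled points passed an adjusted p of 0.05. Gm644 has filled points of both colours, at -0.613 and -0.201.

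Whether a site responded differently to the knockout and the knockdown was tested as the difference of the effects, KO minus WT less siDHX15 minus siNT. It passed at 6 of the 13 sites, beside 37.6% of all 141 sites, of which 17% were negative and 20.6% positive. The knockout effect was the more negative at Gm509 (-0.865, SE 0.0344, limma adjusted p = 6.00e-08), Gm644 (-0.411, SE 0.0485, 0.000115), Am512 (-0.259, SE 0.0365, 0.000316) and Um428 (-0.119, SE 0.0414, 0.0457). The knockdown effect was the more negative at Um627 (0.136, SE 0.0441, limma adjusted p = 0.0358) and Am590 (0.123, SE 0.0378, 0.0288). With the replicate number as a block, Um428 (0.0528) and Um627 (0.0616) no longer passed. In the centred libraries neither Um627 (0.0953, limma adjusted p = 0.145) nor Am590 (0.0826, 0.129) passed, whereas Gm509, Gm644, Am512 and Um428 did. Am576, with -0.258 (95% interval -0.543 to 0.0275, limma adjusted p = 0.151), did not pass. It did in edgeR's quasi-likelihood test on read ends (0.0397) and with 2 neighbours on each side of a position (limma adjusted p = 0.00833). The extent and duration of the loss of either protein were not measured here.

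At Gm644 the comparison of the effects turned on the scale. The score fell by 0.613 in KO and by 0.201 in siDHX15, while read ends relative to the neighbours rose 9.44-fold in KO and 7.14-fold in siDHX15 (edgeR quasi-likelihood test over 7981 positions, adjusted p = 1.54e-05 and 0.00108). On the ratio of read ends among the 141 sites, the difference of effects at Gm644 was not past the threshold (edgeR, adjusted p = 0.620), nor on the logit scale (limma adjusted p = 0.248). The siNT libraries held 2, 19 and 6 ends at this site and the siDHX15 libraries 39, 42 and 212. The WT libraries held 304, 174 and 117 and the KO libraries 1835, 1756 and 1145. The relative ends also rose 11.6-fold at Gm509 and 7.44-fold at Am512 in KO, and 5.48-fold at Um627 in siDHX15 (edgeR adjusted p = 4.42e-06, 1.84e-05 and 0.00400). At Am576 they rose 2.98-fold in KO (edgeR adjusted p = 0.000795). Over the 7981 positions Um428 in KO (2.18-fold, edgeR adjusted p = 0.0885) and Am590 in siDHX15 (2.23-fold, 1.00) did not pass.

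The score sums fragments that start at a cut and fragments that stop at one, and these can be scored apart. At Gm509 read 5' ends alone gave 0 in all 3 KO libraries, and read 3' ends alone gave 0.266, 0.607 and 0.250. In WT both kinds gave high scores there, 0.882, 0.868 and 0.953 from 5' ends and 0.920, 0.923 and 0.880 from 3' ends. Cm462 showed a gap in every group. From 5' ends it scored 0.968, 0.966 and 0.975 in WT, 0.939, 0.974 and 1 in KO, 0.898, 1 and 0.985 in siNT, and 1, 0.911 and 1 in siDHX15. From 3' ends it scored 0.229, 0.620 and 0.562 in WT, and its lowest value was 0.525 in siNT and 0.359 in siDHX15. The low and scattered levels of Cm462 given above were thus those of read 3' ends. In the authors' overview the WT mean of Cm462 is 0.870, since WT replicates 1 and 3 enter with the recalculated values 0.968 and 0.975, against 0.536 from both kinds of ends, and KO is then the lower group. At Um627, 5' ends separated siDHX15 (0.775 to 0.803) from siNT (0.945 to 0.974), and 3' ends did not (1, 0.805 and 0.494 against 0.888, 0.953 and 0.989).

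**Figure D5:**
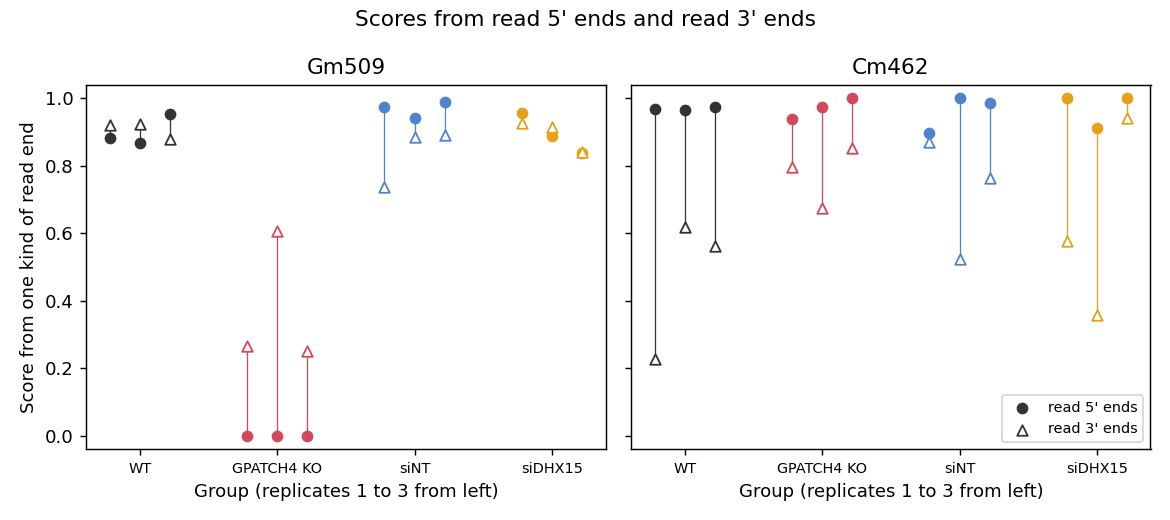
Scores (y axis) from read 5' ends alone (filled circles) and read 3' ends alone (open triangles) at Gm509 and Cm462 in each library (x axis, 3 replicates per group, joined by a line per library). At Cm462 the 5' values lie at 0.898 or above in all 12 libraries while the 3' values reach down to 0.229.

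The 2 control groups were compared to see how far the baseline moved between them. None of the 13 sites passed in siNT minus WT, beside 0 of all 141 sites (limma), and 1 had an unadjusted p under 0.05. This was Gm436, with a difference of 0.231 (limma adjusted p = 0.610). edgeR's quasi-likelihood test on read ends called 0 of the 13 as well. All siNT scores lay below all WT scores at Am576 and Gm601, 2 of the 13 sites, beside 4.26% of all 141. They lay above at Gm436, Cm517, Um627 and Gm644, beside 17.7%. Am576 scored 0.601 to 0.619 in siNT against 0.735 to 0.766 in WT, with a difference of -0.145 (limma adjusted p = 0.730). In a fit on the WT and siNT libraries alone that difference passed (adjusted p = 0.0111). Transfection and depth differ together between these groups, as may the experiment, which the sample titles do not name. These cannot be told apart.

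The unlisted positions of the stretch showed no change past the threshold. Read ends relative to the neighbours were tested at all 247 with edgeR's quasi-likelihood test, and 0 were called in KO and 0 in siDHX15. Over the 7851 unlisted positions of all RNAs 0.0255% and 0.0127% were called. At an unadjusted p under 0.05 there were 20 positions (8.10%) in KO and 4 (1.62%) in siDHX15. DESeq2 called 1 position in KO, C579, with a log2 change of -0.72 (adjusted p = 0.00365), and 0 in siDHX15. C579 lies 3 nt after Am576. Its score was 0 in all WT and siNT libraries, 0.145, 0.237 and 0.267 in KO, and 0.120, 0 and 0.147 in siDHX15. The largest changes in size were 0.96 on the log2 scale in KO, at U573, which lies 3 nt before Am576 (edgeR adjusted p = 0.640), and 0.69 in siDHX15, at G635 (1.00). No unlisted position changed by 1 or more on the log2 scale in either comparison. The 124 unlisted positions within 6 nt of a listed site had a median log2 change of -0.01 in KO and -0.01 in siDHX15, and the 123 farther ones 0.04 and 0.01.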

How the data were processed

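RiboMeth-seq libraries were made from 12 RNA samples: alkali-treated RNA, fragments of 20 to 40 nt, Ion Proton sequencing, per the labels' protocols. Per the submitters' processing notes, hg38, Bowtie2 2.3.4.1 and cutadapt 2.0 were used, with no roles given. The deposited tables hold whole-number counts of read 5' and 3' ends per position and library, per the file headers, and the authors' score, a fraction from 0 to 1. The score was recomputed from the deposited counts with 6 neighbours on each side (weights 1 to 0.5, negative values set to 0) and matched at 8044 of 8044 positions to within 5e-09. Recalculated scores were used only at 8 snRNA end sites.

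Scores of all 141 listed sites entered a limma 3.58.1 fit (R 4.3.3; 4 group means, 12 libraries, linear scale, two-sided, Benjamini-Hochberg at 0.05). Called means past that threshold. Read ends at 7981 positions with a mean of 10 or more were tested with edgeR 4.0.16 (quasi-likelihood, neighbour mean as offset), with DESeq2 1.42.0 as an alternative. Scripts were tested on simulated data for KO minus WT. Of simulated score changes of -0.1, -0.2 and -0.4, limma called 50%, 80% and 95%. Of simulated log2 changes in read ends, edgeR called 74% at 1, 64% at -1 and 100% at 2 and at -2. A site or position that did not pass may thus still have changed by the smaller amounts. P-values measure the spread between the 3 replicates, in limma pooled over the 4 groups and moderated over the 141 sites. A site's SE is thus the same in KO minus WT and siDHX15 minus siNT. At Am576 the pooled SDs were 0.0162 in WT, 0.221 in KO, 0.00972 in siNT and 0.0918 in siDHX15. At Gm509 the KO SD of 0, set by the floor, entered as well. Replicates differed beyond sampling noise (chi-square over its degrees of freedom from 13.7 to 378). Deviations of same-numbered libraries from their group means over the 141 sites correlated at r = 0.117, 0.160 and 0.166 for siNT and siDHX15. For WT and KO r was 0.120, 0.0459 and -0.000863. WT and siNT gave -0.197, 0.235 and 0.325. Libraries numbered 2 and 3 of these 2 groups share an index, and those numbered 1 do not. WT and siNT are thus no unpaired reference, and these values cannot decide whether libraries are paired. In the fit with the replicate number as a block, libraries of the same number shared a block across all 4 groups. The labels give no reason for a pairing. All 13 sites are named. Of unlisted positions, those called and the 5 highest in control libraries are named by rule; C579, U573 and G635 as changed positions were chosen after their values were seen. The stretch, the lists and the tests were chosen with earlier results of these data known. Guide RNAs are textbook background, not from the tables.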

Additional observations from a re-analysis of the deposited data

Results flagged for a closer look

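The effects of the knockout and of the knockdown differed at 6 of the 13 sites by the test of the difference itself (limma, KO minus WT less siDHX15 minus siNT, adjusted over 141 sites), beside 37.6% of all 141 sites. At Gm509 the difference of effects was -0.865 (adjusted p = 6.00e-08), with scores of 0 in all 3 KO libraries and 0.840 to 0.945 in siDHX15. At Gm644 it was -0.411 (adjusted p = 0.000115), and the site was lower in both comparisons. This difference did not pass on read ends (edgeR adjusted p = 0.620) or on the logit scale (limma adjusted p = 0.248). Am512 had -0.259 (adjusted p = 0.000316), and Um428 had -0.119 (adjusted p = 0.0457). In the opposite direction Um627 had 0.136 (adjusted p = 0.0358) and Am590 had 0.123 (adjusted p = 0.0288), both lower in siDHX15 and not called in KO. Depth also differed, with 7437847 to 16314082 read ends per library in WT and KO and 875096 to 5111963 in siNT and siDHX15. With all libraries thinned to 875096 ends, Gm509, Gm644, Am512 and Um627 still passed, and Um428 (limma adjusted p = 0.289) and Am590 (0.0552) did not. With each library centred, Gm509, Gm644, Am512 and Um428 passed, and Um627 (limma adjusted p = 0.145) and Am590 (0.129) did not.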

How the results depend on the processing

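All planned settings were run. In KO minus WT 5 sites were called, 3 with the library index as a block and 5 to 6 with a library left out. WT and KO share no index, so that block reaches their difference only through the siRNA libraries. In siDHX15 minus siNT 3 were called, 1 from read 3' ends alone and 2 to 6 with a library left out. Centring each library there turned a call up at Gm601 (0.0725, limma adjusted p = 0.00619), so that 2 of 3 calls were lower. The difference of effects had 6 calls, 3 on the logit scale, 3 from read 3' ends alone and 3 to 5 with a library left out. It kept Gm509 and Am512 at the threshold under each setting. Um428, Am590 and Um627 were lost without single libraries of either comparison (3 calls without KO replicate 2, siNT replicate 2 or siDHX15 replicate 3). From read 5' ends alone it reversed at Am468, to -0.0852 (limma adjusted p = 0.0252) from 0.02. The replicate block left the calls of KO minus WT and of siDHX15 minus siNT at 5 and 3 sites and gave 4 for the difference of effects, and it changed no other call. In siNT minus WT, 0 sites were called, and 1 in a fit on those groups alone. Unlisted positions in KO had 0 calls, and 1 with DESeq2. Leaving out a library gave 0 in both. Of all recomputed values, 1197 kept their sign and side of the threshold, or stayed within 1.5 times for counts. In 69 more the sign of a difference changed with neither value past the threshold, 53 lost and 14 gained the threshold, 10 counts moved and 1 reversed. The cause of these changes was not tested. The 1197 include the score recomputed from the counts, which repeats the deposited score and could change no call. Among the 13 sites, lifting the floor altered only the scores of Gm509, and the overview scores differed only at Cm462. The fewest ends at a site were 27 in WT, 30 in KO, 2 in siNT and 4 in siDHX15, and the median SD over the 13 sites was 0.0162, 0.0373, 0.0208 and 0.0526.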
